A study of Mus musculus with 8 samples.

Results

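The 4 Hox clusters of the mouse genome were examined in ChIP-seq peak lists of Ezh2 and G9a from TT2 mouse embryonic stem cells. They were taken as fixed windows of the mm9 build. These are HoxA at 52.09 to 52.23 Mb of chromosome 6, HoxB at 96.04 to 96.24 Mb of chromosome 11, HoxC at 102.74 to 102.88 Mb of chromosome 15 and HoxD at 74.49 to 74.62 Mb of chromosome 2. The windows measure 140, 200, 140 and 130 kb, 610 kb in all. Every peak that overlapped a window by 1 bp or more was a member, which gave 645 of the 174428 peaks in 5 lists. No measured value chose the peaks within the windows, but the windows were chosen with earlier results of these data known.

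TT2 is a line from a cross of a C57BL/6 female with a CBA male, and all groups derive from it. Wild-type cells gave 2 Ezh2 libraries, numbered 0 and 1 in the titles, and 1 G9a library. Cells lacking both enzymes (G9a-/-GLP-/-, called the knockout here) gave 1 Ezh2 library, numbered 0. Knockout cells rescued with wild-type G9a gave 1 G9a library, and by their label they still lacked GLP. All cells grew in serum and LIF, and the G9a libraries alone had a protein crosslinking step before formaldehyde. Whether the 2 wild-type Ezh2 samples were separate cultures is not stated, and their spread may be technical. The source name of the knockout Ezh2 library gives the cell line alone, and its title was followed. Peak lists cannot show whether G9a and GLP were absent.

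Hox genes encode homeodomain transcription factors that set position along the body axis. They lie in order in each cluster, from 3′ genes that switch on early and act anteriorly to 5′ genes of the group 13 that act last and posteriorly. In embryonic stem cells the clusters are mostly silent and are textbook targets of Polycomb repressive complex 2. Ezh2 is the subunit of that complex that methylates lysine 27 of histone H3. G9a (also Ehmt2) and GLP (Ehmt1) form a heterodimer that methylates lysine 9 of histone H3. The study asks how these enzymes bear on Polycomb silencing.

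The members by name are 38 genes. HoxA holds Hoxa2, Hoxa3, Hoxa4, Hoxa5, Hoxa6, Hoxa7, Hoxa9, Hoxa10, Hoxa11 and Hoxa13, from low to high coordinate. HoxB runs the other way, from Hoxb13 through Hoxb9, Hoxb8, Hoxb7, Hoxb6, Hoxb5, Hoxb4, Hoxb3 and Hoxb2 to Hoxb1. HoxC runs from Hoxc13 through Hoxc12, Hoxc11, Hoxc10, Hoxc9, Hoxc8, Hoxc6 and Hoxc5 to Hoxc4. HoxD runs from Hoxd13 through Hoxd12, Hoxd11, Hoxd10, Hoxd9, Hoxd8, Hoxd4 and Hoxd3 to Hoxd1. The long transcripts of Hoxb3 and Hoxd3 reach past Hoxb4 and Hoxd4. The gene table used is of the GRCm38.p6 build and the peaks are of mm9, so no peak was assigned to a single gene, and results are given by cluster and by distance from the low-coordinate end of its window.

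The clusters also hold microRNA genes, which repress transcripts that pair with their seed (bases 2 to 8, in capitals). They are shown because members in different clusters share a seed, so clusters on separate chromosomes hold near-identical products. The mature sequences are from RefSeq, 5′ to 3′.

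mmu-miR-10a-5p, from HoxB: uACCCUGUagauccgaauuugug
mmu-miR-10b-5p, from HoxD: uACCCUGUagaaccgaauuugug
mmu-miR-196a-5p, from copies in HoxB and HoxC: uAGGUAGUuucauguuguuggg
mmu-miR-196b-5p, from HoxA: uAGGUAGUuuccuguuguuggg
mmu-miR-615-3p, from HoxC: uCCGAGCCugggucucccucuu

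Counted from 1 at the 5′ end, miR-10b-5p differs from miR-10a-5p by U12A and miR-196b-5p differs from miR-196a-5p by A12C, both outside the seed.

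Polycomb repressive complex 2 is known to gather at DNA rich in the dinucleotide CG that is not methylated. RefSeq (GRCm38.p6) gave 24 promoters for 22 of the 38 genes, and the 250 bases upstream of each start were scanned for CG. They held a median of 12.5 CG (range 2 to 35), against 6 over all 32851 promoters in the table. At least 10 CG were present in 15 of 24 Hox promoters (62.5%) and in 37.8% of all promoters. By cluster the promoters numbered 10 in HoxA, 3 in HoxB, 1 in HoxC and 10 in HoxD. The values above thus stand mostly for HoxA and HoxD. Among the promoters in the table, the highest count in each cluster was 35 in Hoxa13, 14 in Hoxb4, 8 in Hoxc4 and 31 in Hoxd13. These promoters are printed to show how far Hox promoters differ in CG (in capitals); none was placed in a peak. CG reads the same on both strands, and each sequence is on its gene's strand, 5′ to 3′.

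Hoxa13, minus strand: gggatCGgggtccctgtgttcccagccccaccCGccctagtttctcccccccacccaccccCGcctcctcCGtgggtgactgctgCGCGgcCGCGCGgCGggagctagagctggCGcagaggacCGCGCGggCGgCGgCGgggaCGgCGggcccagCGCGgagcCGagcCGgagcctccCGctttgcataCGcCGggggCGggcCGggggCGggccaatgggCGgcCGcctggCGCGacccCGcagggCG
Hoxb4, plus strand: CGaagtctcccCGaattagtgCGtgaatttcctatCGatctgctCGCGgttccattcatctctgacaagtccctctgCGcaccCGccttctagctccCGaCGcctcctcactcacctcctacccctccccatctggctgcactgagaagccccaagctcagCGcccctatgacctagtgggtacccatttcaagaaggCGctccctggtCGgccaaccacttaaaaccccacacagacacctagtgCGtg
Hoxc4, plus strand: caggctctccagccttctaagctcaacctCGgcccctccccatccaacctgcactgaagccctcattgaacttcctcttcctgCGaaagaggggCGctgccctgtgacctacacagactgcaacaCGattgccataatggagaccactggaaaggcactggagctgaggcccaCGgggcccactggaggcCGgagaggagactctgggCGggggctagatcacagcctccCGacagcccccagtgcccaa
Hoxd13, plus strand: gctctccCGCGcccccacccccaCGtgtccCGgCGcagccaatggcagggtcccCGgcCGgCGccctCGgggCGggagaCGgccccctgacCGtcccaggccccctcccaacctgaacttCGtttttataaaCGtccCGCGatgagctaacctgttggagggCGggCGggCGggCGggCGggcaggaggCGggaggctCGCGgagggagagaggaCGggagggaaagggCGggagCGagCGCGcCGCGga

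Hoxa13 and Hoxd13 are the 5′ end genes that pattern the distal limb and the urogenital tract, and both promoters are dense in CG over much of their length. Only 3 HoxB promoters and 1 HoxC promoter were in the table, so neither cluster can be compared with the others in CG.

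The lists differ in reach, and this touches every result, though to different degrees. They held 5425 (wild-type Ezh2 library 0), 11766 (library 1) and 6198 (knockout Ezh2) peaks, and 67318 (wild-type G9a) and 83721 (rescue G9a). The score is 10 times the negative log10 of the p given by the authors' peak caller. Its lowest value was 43.02 in library 0, 43.03 in the knockout and 30 in library 1, so the library 1 list reaches weaker calls. Library 0 and the knockout also carry the same number in their titles. What that number marks is not stated, and read depth is unknown. With 1 knockout Ezh2 library and 1 library of each G9a group, conditions could not be tested against each other, and all differences below are descriptions.

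Ezh2 filled much of all 4 clusters in every list. The 258 Hox peaks of library 0 were 4.76% of its peaks and covered 226.7 kb, or 37.2% of the windows. Library 1 held 96 Hox peaks, but these were longer and covered 489.8 kb, or 80.3% of the windows. At a common lowest score of 43.03 library 1 still covered 486541 bp, and at equal list lengths 480463 bp. Library 0 covered 226679 bp at both settings. The knockout held 259 Hox peaks that covered 191.9 kb, or 31.5%. Knockout Hox peaks had a median width of 579 bp, close to 576 bp in library 0, while that of library 1 was 2160.5 bp. Thus the wild-type libraries differed from each other by more than the knockout differed from library 0.

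By share of its window HoxA was the most covered cluster in library 0, at 44.6% (62.4 kb in 57 peaks), while HoxB had the greater length. Library 1 covered 122.6 kb of it (87.5%) in 22 peaks, and the knockout covered 51.6 kb (36.8%) in 67 peaks. HoxB was covered over 73.7 kb (36.9%) in library 0, 146.7 kb (73.3%) in library 1 and 67.4 kb (33.7%) in the knockout. HoxC was covered over 44.4 kb (31.7%), 124.2 kb (88.7%) and 39.4 kb (28.2%) in the same order. HoxD was covered over 46.1 kb (35.5%), 96.3 kb (74.1%) and 33.6 kb (25.8%). In all 4 clusters library 1 was highest and the knockout lowest, by a margin from library 0 far smaller than that between the wild-type libraries.

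**Figure D1:**
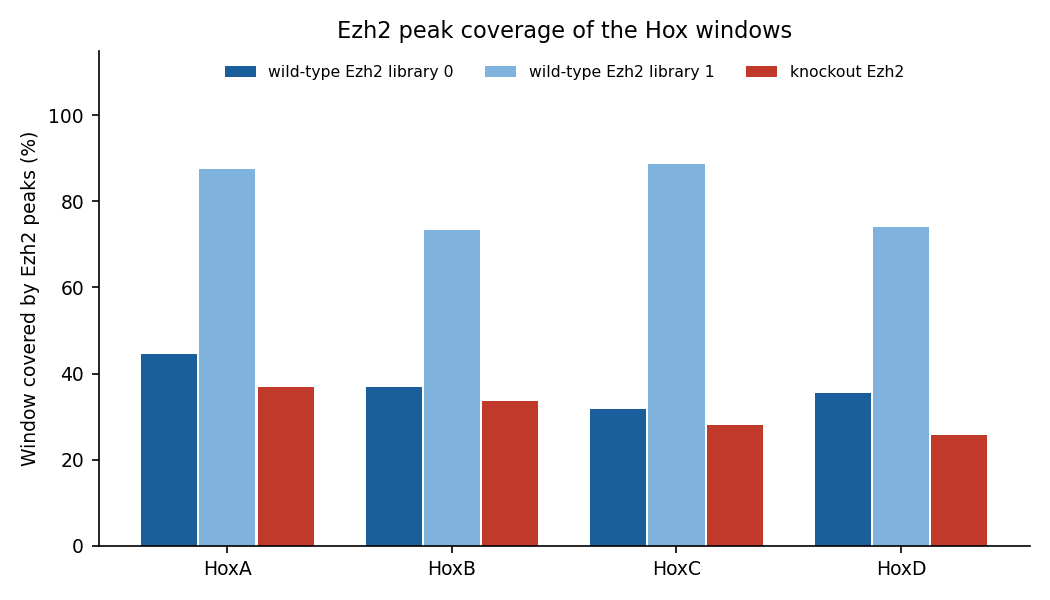
Share of each Hox window (%, bars from 0) covered by Ezh2 peaks in wild-type library 0, wild-type library 1 and the knockout, 1 library a bar. Library 1 lies between 73.3% and 88.7%, library 0 between 31.7% and 44.6%, and the knockout between 25.8% and 36.8%.

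The covered length in the knockout, as a ratio to library 0, was 0.914 in HoxB, 0.887 in HoxC, 0.826 in HoxA and 0.728 in HoxD. Over all 4 windows it was 0.847, close to 0.838 over the whole lists. As a ratio to library 1 it was 0.459 in HoxB, 0.421 in HoxA, 0.348 in HoxD and 0.317 in HoxC, and 0.392 over the windows. The corresponding ratio over the whole lists was 0.225. Within wild type, library 0 to library 1 gave 0.463 over the windows and 0.268 over the whole lists. HoxD had the lowest ratio to library 0 also with scores of at least 100, a common lowest score, equal list lengths or merged peaks. HoxC and HoxB changed places when peaks within 1 kb were merged (0.940 and 0.931).

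Outside the windows Ezh2 peaks were sparse. In the 100 kb on each side of the 4 windows, library 0 covered 1.96%, library 1 covered 7.07% and the knockout covered 1.74%. No list had an Ezh2 peak in the 100 kb on the low side of HoxA or on the high side of HoxD. The high side of HoxA, beyond Hoxa13, held a separate group of 10 library 0 peaks, 9 library 1 peaks and 11 knockout peaks. Their highest scores there were 557.89, 3100 and 254.11, in peaks that start 171.6 to 173.7 kb from the window start. In HoxD the last Ezh2 base of any list lay 17.2 kb before the high-coordinate end of the window, which is the Hoxd1 end.

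**Figure D2:**
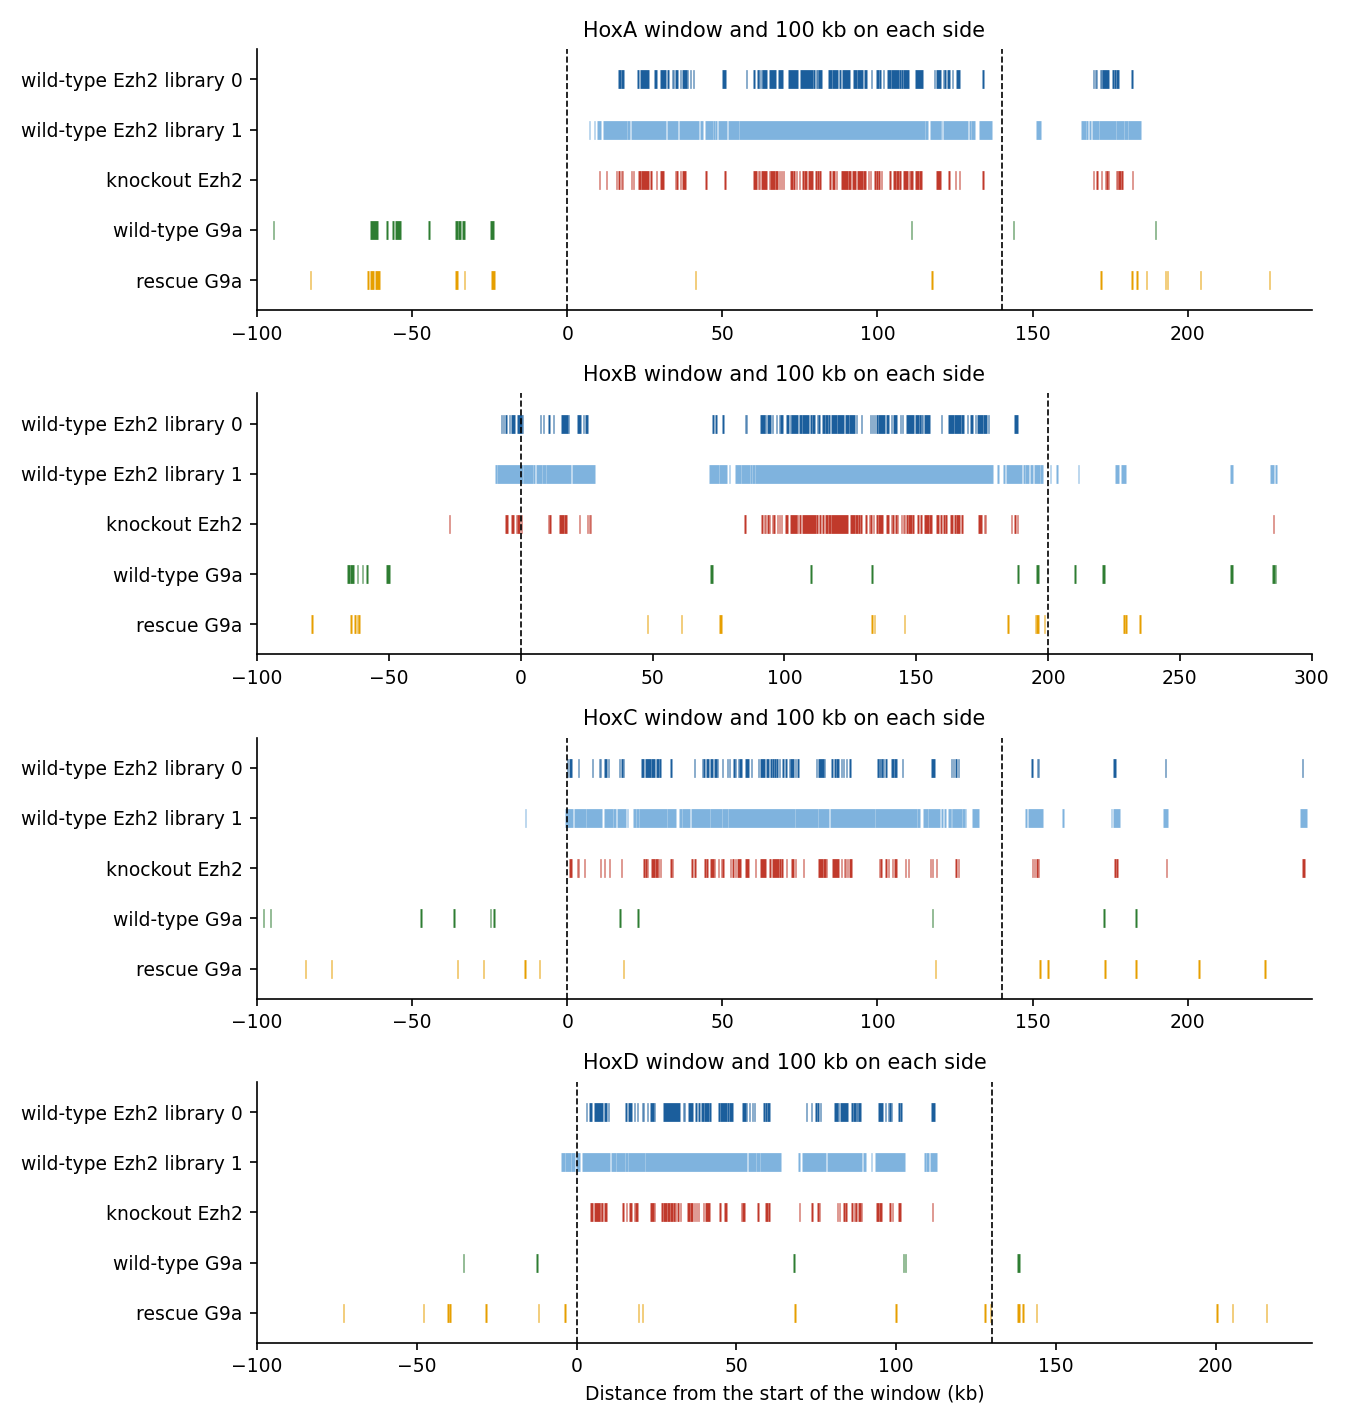
Position of every peak of the 5 lists in the 4 Hox windows and the 100 kb on each side; the x axis is distance from the window start in kb, dashed lines are the window's ends, and each bar is 1 peak drawn to scale. Ezh2 peaks crowd inside the windows in all 3 lists, with a gap of 43.2 kb inside HoxB, while G9a peaks are thinly spread, with 12 wild-type and 20 rescue peaks inside and 34 and 50 beside.

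HoxB was split. No Ezh2 list had a peak in the 43237 bp from 96068295 to 96111531 of chromosome 11, which is 28.3 to 71.5 kb from the window start. Library 0 alone lacked Ezh2 over 47165 bp there, and the knockout list over 46131 bp. In RefSeq gene order Hoxb13 is the first member and Hoxb9 the next, and the long stretch between them is a known feature of this cluster. Between the first and last Ezh2 peak, the longest stretch free of Ezh2 in every list was 1231 bp in HoxA, 1843 bp in HoxC and 6109 bp in HoxD. The free ends of the windows, up to 17.2 kb in HoxD, are not counted in these.

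The longest Ezh2 peaks of library 1 were Hox peaks. The first, 90112 bp at 96129021 to 96219132 of chromosome 11, spanned the main block of HoxB. The next was 60091 bp at 52145250 to 52205340 of chromosome 6 in HoxA. The third in length was 32021 bp at 74511324 to 74543344 of chromosome 2 in HoxD, and the HoxC one, 21597 bp at 102791794 to 102813390 of chromosome 15, was the fifth. The HoxB peak held 53 library 0 peaks and 57 knockout peaks, and the covered shares of it were 67.0% and 65.3%. The HoxA peak held 32 and 43, which covered 67.8% and 58.3%. In HoxD, 18 library 0 peaks covered 62.6% and 22 knockout peaks covered 43.4%. In HoxC, 19 library 0 peaks covered 57.8% and 13 knockout peaks covered 51.0%. These blocks were thus 1 peak in library 1 and strings of shorter peaks in the other lists.

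The longest library 1 peaks of HoxB and HoxA did not score at the top. The 90112 bp HoxB peak had a score of 73.19, which ranks 5146.5 of 11766, and the HoxA one had 176.97. The HoxD one had 2453.07 and the HoxC one 1775.78. Outside the clusters, most of its longest peaks had the top score of 3100, which 322 peaks of the list share. With scores of at least 100 the HoxB block is lost from library 1 by construction, and its covered length in HoxB is 50.0 kb in place of 146.7 kb.

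Hox peaks ranked high in their lists by score. In the top 10% of each list were 38 of 258 Hox peaks in library 0 (14.7%), 39 of 96 in library 1 (40.6%) and 54 of 259 in the knockout (20.8%), against 10.0% of all peaks in each list by construction. By cluster the top 10% held 14 HoxA, 14 HoxB, 3 HoxC and 7 HoxD peaks in library 0. The counts in that order were 9, 4, 17 and 9 in library 1, and 19, 16, 9 and 10 in the knockout. HoxC was thus lowest in library 0 and highest in library 1. Its library 0 share, 3 of 73 peaks (4.11%), was below the 10.0% of all peaks. The median rank of HoxC peaks was at the 45.2 percentile of library 0, the 8.20 percentile of library 1 and the 33.7 percentile of the knockout, where 0 is the highest score. The corresponding medians were 33.9, 20.7 and 21.4 in HoxA, 30.6, 25.8 and 21.8 in HoxB and 39.8, 10.3 and 26.8 in HoxD. Ranks come from lists of different lengths, so a shift in rank between lists shows no change in binding.

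**Figure D3:**
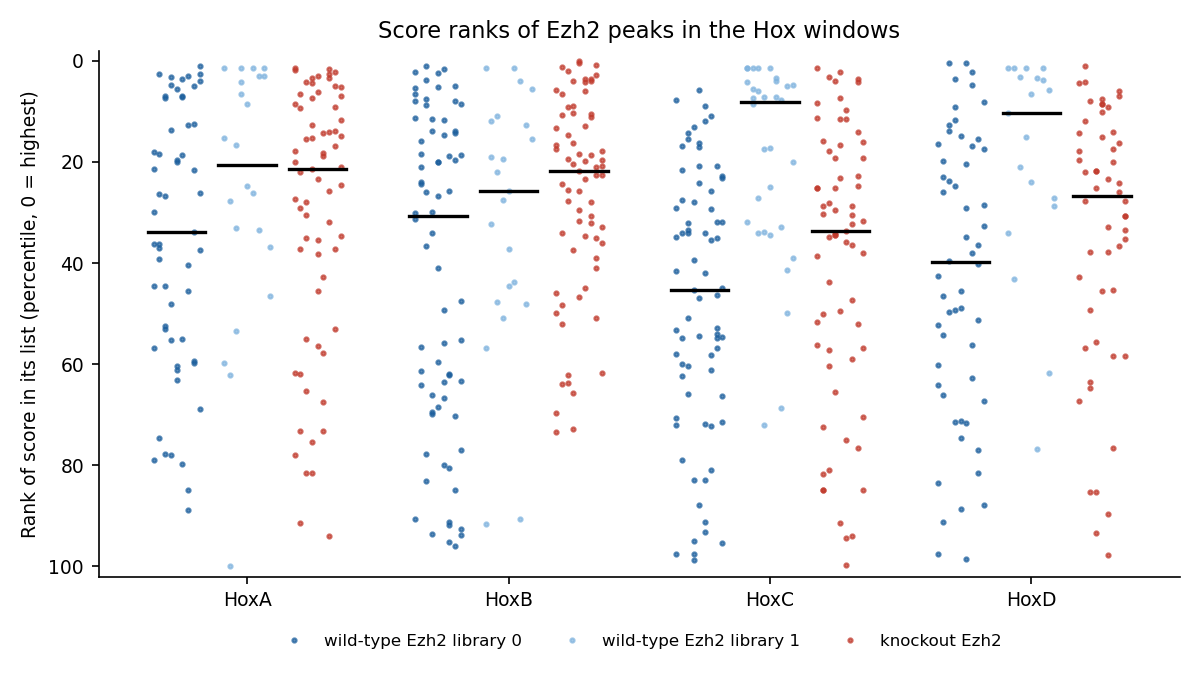
Rank of each Hox Ezh2 peak by score within its own list (y axis, percentile, 0 at the top is the highest score) by cluster and list; points are peaks and black bars are medians. Medians run from 30.6 to 45.2 in library 0, 8.20 to 25.8 in library 1 and 21.4 to 33.7 in the knockout.

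The highest-scoring library 0 peaks were present in the knockout in every cluster, in pieces in some. In HoxD the top library 0 peak, 5335 bp at 74517144 to 74522478 of chromosome 2 (score 2300.59, rank 21), overlapped 7 knockout peaks that covered 4614 bp of it. In HoxA, the peak at 52164903 to 52169146 of chromosome 6 (4244 bp, 1681.64, rank 53) overlapped 4 knockout peaks over 3395 bp. In HoxC, the peak at 102820869 to 102822638 of chromosome 15 (1770 bp, 753.42, rank 312) overlapped 2 knockout peaks over 1496 bp. HoxB went the other way. Its top library 0 peak, at 96160049 to 96162733 (2685 bp, 1666.23, rank 55), was wholly inside 1 knockout peak of 6424 bp at 96157820 to 96164243. That knockout peak had a score of 2498.2, rank 4 of its list, was the second longest of the list and joined 3 library 0 peaks. A library 1 peak covered each of these in full.

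Of the base pairs covered in both wild-type libraries, 66.6% were also covered in the knockout. The share was 73.4% in HoxB, 67.3% in HoxA, 61.3% in HoxC and 59.9% in HoxD, against 53.5% over the whole lists. Since library 1 covered nearly all that library 0 covered, these are in effect shares of library 0. The knockout covered 31.5% of the windows and 3.38 Mb over its whole list. Peaks placed at random would thus meet it more often in the windows. The part of this in the higher Hox shares, also those counted as peaks, was not tested. When library 0 is left out and all library 1 base pairs are the base, the knockout covered 39.2% of them in the windows and 18.5% over the whole list. With scores of at least 100 the HoxB share was 23.5%, because its long library 1 peak then drops out. Of the knockout base pairs in the windows, 78.7% lay in library 0 and 99.96% in library 1, against 61.9% and 82.4% over the whole list. The 99.96% was close to fixed, as library 1 covered 80.3% of the windows.

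Counted as peaks, 184 of 258 Hox peaks of library 0 (71.3%, Clopper-Pearson 95% interval 65.4 to 76.8) overlapped a knockout peak, against 51.1% of all library 0 peaks. The interval treats peaks as independent, which neighbours are not, and covers counting error only. By cluster it was 41 of 57 in HoxA (71.9%), 53 of 72 in HoxB (73.6%), 52 of 73 in HoxC (71.2%) and 38 of 56 in HoxD (67.9%). In library 1 all 258 were found, against 91.3% of all library 0 peaks. Of the 259 knockout Hox peaks, 210 (81.1%) were in library 0, against 52.5% of the list, and all 259 in library 1, against 71.0%. As library 1 covered 80.3% of the windows, nearly any peak there would meet it, so neither full count in library 1 is a result. Of the 96 library 1 Hox peaks, 49 (51.0%) were in library 0 and 47 (49.0%) in the knockout, against 22.5% and 19.0% of that list. So for library 1 the knockout and library 0 held nearly the same total of its Hox peaks, while the clusters differed. Library 0 and the knockout held 9 and 11 of 22 in HoxA and 11 and 7 of 23 in HoxB. They held 19 and 17 of 32 in HoxC and 10 and 12 of 19 in HoxD. By base pair, library 0 covered 46.3% of library 1 in the windows and the knockout 39.2%. The library 1 Hox peaks had a median width of 2160.5 bp, against 720 bp over that list. The part of peak length in their higher shares was not tested.

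The share found moved with score. Library 0 was divided by score into 5 classes of equal size. In the highest class, 75 of 76 Hox peaks (98.7%) overlapped a knockout peak, against 94.6% of its other peaks. Down the other classes the Hox shares were 87.9%, 62.5%, 44.4% and 25.8%, and the shares of other peaks were 68.6%, 42.9%, 26.1% and 20.3%. The Hox share was the higher in each of the 5 classes, and the lowest class held only 31 Hox peaks, of which 8 were found. Hox peaks also lie close together, at 42.3 per 100 kb in library 0 and 42.5 in the knockout. The part of this spacing in the higher share was not tested.

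Long Hox peaks resembled other long Ezh2 peaks in the share of library 0 base pairs found in the knockout, but not in every measure. Library 1 had 87 peaks of 10 kb or more, 8 of them in the Hox windows. The median width was 18120 bp in the Hox peaks and 12168 bp in the others. Within them the knockout covered a median of 68.3% of the library 0 base pairs in the 8 Hox peaks and 68.0% in the other 79. The median ratio of knockout to library 0 length was 0.871 in the Hox peaks (range 0.599 to 1.27) and 0.753 in the others (0.115 to 1.76). The knockout covered less than library 0 in 7 of the 8 and in 69 of the 79.

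Along the clusters, the covered shares of library 0 and the knockout varied largely together, with local exceptions. In 61 bins of 10 kb, Pearson's r between their covered shares was 0.917, from 0.890 in HoxA to 0.959 in HoxB, and it was 0.684 between library 0 and library 1. These are descriptions over neighbouring bins, and 5 bins had no Ezh2 in any list. Library 1 was at or near full cover, 90% or more, in 38 bins, which limits how far its profile can vary. The knockout was lower than library 0 in 33 bins, higher in 22 and equal in 6, with a median difference of -3.02 points. It was lower by 10 points or more in 13 bins and higher by as much in 1. HoxD was lower in 10 of its 13 bins.

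**Figure D4:**
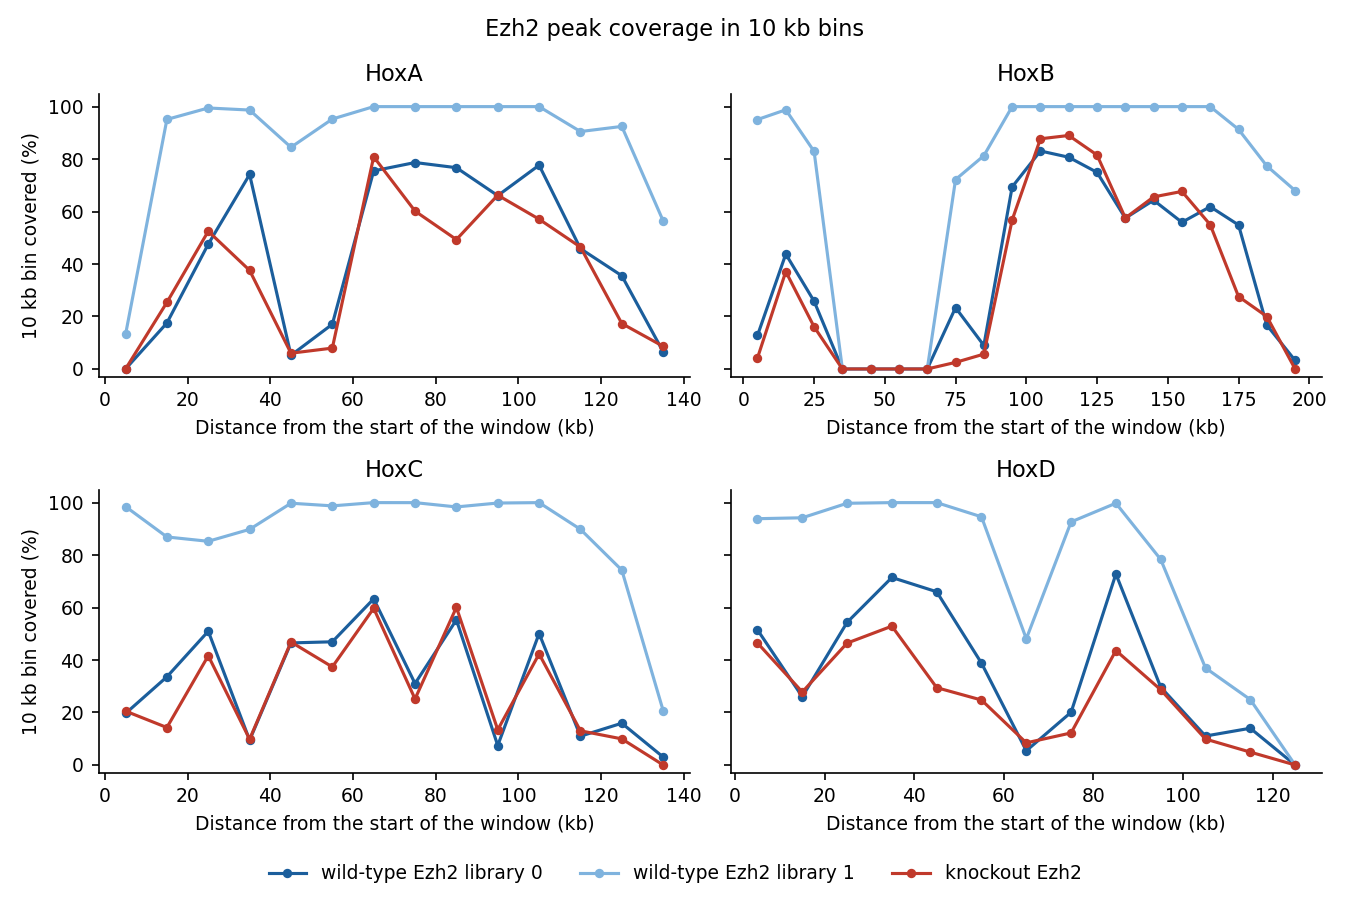
Share of each 10 kb bin (%) covered by Ezh2 peaks along each Hox window, against distance from the window start in kb, for the 3 Ezh2 lists (1 library a line). Library 0 and the knockout vary largely together (r of 0.917 over 61 bins), library 1 lies higher, and the 30 to 70 kb part of HoxB is empty in all 3.

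The largest drops were local. At 30 to 40 kb of HoxA, library 0 covered 74.1%, library 1 98.7% and the knockout 37.6%. At 40 to 50 kb of HoxD the values were 66.0%, 100% and 29.5%, and at 80 to 90 kb of HoxD they were 72.8%, 99.8% and 43.6%. At 80 to 90 kb of HoxA they were 76.7%, 100% and 49.3%, and at 170 to 180 kb of HoxB they were 54.9%, 91.3% and 27.6%. The 1 bin that was higher by over 10 points was at 150 to 160 kb of HoxB, with 55.9% in library 0, 100% in library 1 and 67.7% in the knockout. In HoxB the net difference in covered length lay mostly outside the main block. The drop at 170 to 180 kb lay almost wholly inside it, where bins with higher knockout cover offset part of the drops. Within the longest library 1 peak of HoxB, its main block, library 0 covered 60348 bp and the knockout 58848 bp, a ratio of 0.975. In the rest of the window they covered 13382 and 8556 bp, a knockout to library 0 ratio of 0.639. HoxA gave 0.859 and 0.764, HoxC 0.883 and 0.889, and HoxD 0.694 and 0.754, so HoxC and HoxD did not share that pattern.

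The Hox peaks of library 0 with no knockout peak were mostly weak. There were 16 in HoxA, 19 in HoxB, 21 in HoxC and 18 in HoxD, with median scores of 67.7, 52.7, 56.6 and 61.6. The highest-ranked was in HoxD at 74537827 to 74539014 of chromosome 2 (1188 bp, score 321.06, rank 945). In HoxB it was at 96210334 to 96211565 of chromosome 11 (1232 bp, 201.49), in HoxC at 102814083 to 102814787 of chromosome 15 (705 bp, 154.57) and in HoxA at 52177618 to 52178201 of chromosome 6 (584 bp, 142.39). All 4 lay wholly within library 1 peaks. In turn, 49 knockout Hox peaks were not in library 0, and all were in library 1. They numbered 11 in HoxA, 15 in HoxB, 16 in HoxC and 7 in HoxD. The strongest was in HoxB at 96197416 to 96198660 (1245 bp, score 262.18, rank 552). As library 1 covered 80.3% of the windows, nearly any peak there would meet it, so its overlap with all knockout peaks is not a result about the knockout.

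G9a covered far less of the clusters than Ezh2. Wild-type G9a had 12 peaks in the windows, which covered 7.3 kb, and the rescue had 20, which covered 10.3 kb. With the rescue list cut to the length of the wild-type list it had 13, against 12 in wild type. Scores inside ran from 20.39 to 60 in wild type (median 24.97, against 31.71 for the list) and from 20.04 to 94.3 in the rescue (median 25.31, against 26.86). The lowest score of both lists is 20, so many of these calls lay near the limit. None of the 12 wild-type peaks and 3 of the 20 rescue peaks were in the top 10% of their list.

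HoxA had 1 wild-type G9a peak and 2 rescue peaks, at different places. HoxB had 5 and 10, HoxC 3 and 2, and HoxD 3 and 6. Only 3 of the 12 wild-type peaks overlapped a rescue peak (25%, against 31.9% of the list), and 3 of the 20 rescue peaks overlapped a wild-type peak (15.0%, against 27.2%). The strongest was shared. It lies near the Hoxb1 end of HoxB, at 96235407 to 96236634 of chromosome 11 in wild type (score 60) and 96235438 to 96236708 in the rescue (score 94.3). Library 1 Ezh2 covered it in full, and library 0 and the knockout had no Ezh2 there. The other shared places were at 132.9 kb of HoxB (scores 53.33 in wild type and 41.09 in the rescue) and near 68 kb of HoxD (38.27 and 26.74). At the HoxB place both G9a peaks overlapped Ezh2 in every Ezh2 list. At the HoxD place no Ezh2 list had a peak. The HoxB gap without Ezh2 held 2 rescue peaks, at 47.8 and 60.7 kb with scores of 21.27 and 21.12, and no wild-type peak.

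Over the 4 windows together, the density of G9a peaks was lower inside than beside them. Wild-type G9a had 1.97 peaks per 100 kb inside and 4.25 in the 100 kb on each side, a ratio of 0.463. The rescue had 3.28 and 6.25, a ratio of 0.525. The clusters differed. HoxA had the lowest ratios, 0.119 in wild type and 0.190 in the rescue, and HoxC had 0.536 and 0.238. HoxB had 0.455 and 1.00, and HoxD had 1.54 and 0.710. The wild-type HoxD value rests on 3 peaks inside and 3 beside. In wild type the deficit in HoxA comes with 10 peaks on its low side, the side of Hoxa2, against 2 on the high side. The rescue had 7 on the low side and 8 on the high side. The low side of HoxA holds the highest G9a scores near any window. These are 691.68 in wild type and 206.65 in the rescue, 63.7 and 62.0 kb below the window start.

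**Figure D5:**
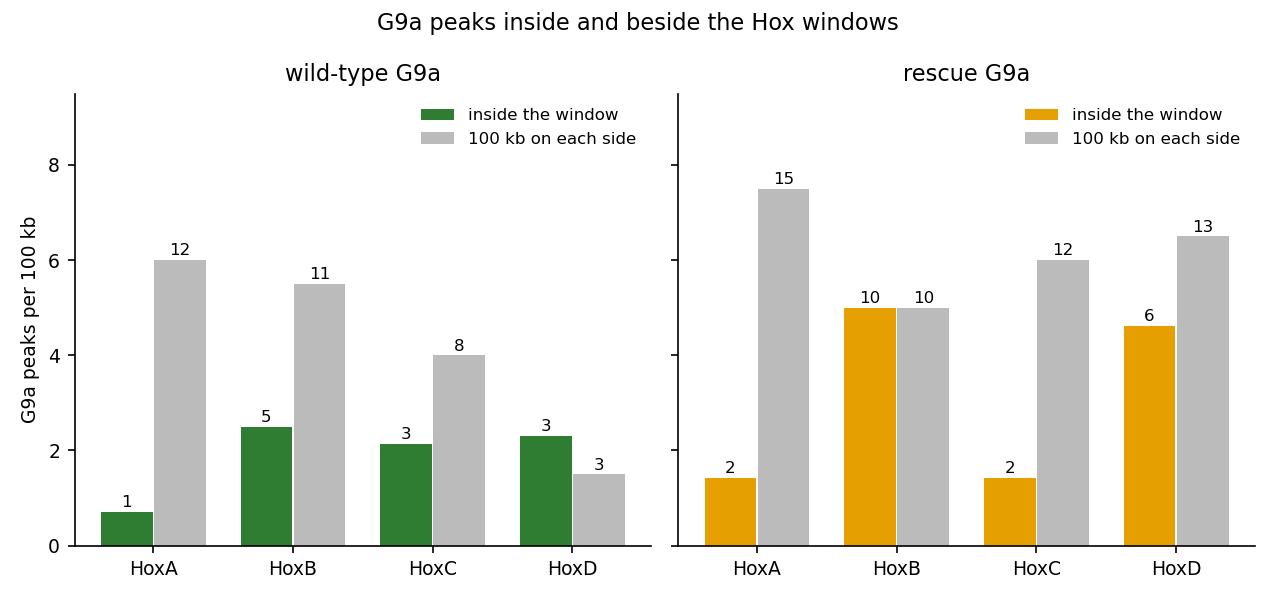
G9a peaks per 100 kb inside each Hox window (colored bars) and in the 100 kb on each side (grey bars), from 0, in the wild-type and rescue lists, with the number of peaks over each bar. HoxA is lower inside than beside in both lists (1 against 12 and 2 against 15 peaks), while HoxB in the rescue and HoxD in wild type are not.

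Against the genome the windows held more G9a peaks than the median tile in 5 of 8 cases and fewer in 3. The median tile of the window's length held 2 wild-type G9a peaks for HoxA, HoxC and HoxD and 3 for HoxB, and the windows held 1, 3, 3 and 5. For the rescue the median tile held 3 peaks for HoxA, HoxC and HoxD and 4 for HoxB, and the windows held 2, 2, 6 and 10. Tiles of the window's length along the genome had no more wild-type G9a peaks than HoxA in 44.9% of cases, than HoxB in 63.9%, than HoxC in 62.8% and than HoxD in 64.9%. For the rescue the shares were 46.3% for HoxA, 79.3% for HoxB, 46.3% for HoxC and 77.6% for HoxD. Tiles include stretches where no peak can be called. The lower density of the 4 windows together is thus relative to their flanks.

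Few Ezh2 peaks in the clusters overlapped a wild-type G9a peak. A wild-type G9a peak overlapped 6 of 258 library 0 Hox peaks (2.33%, against 5.84% of the list), 9 of 96 in library 1 (9.38%, against 14.2%) and 5 of 259 in the knockout (1.93%, against 5.34%). By their label the knockout cells lacked G9a, so the last share sets their Ezh2 sites beside G9a sites of wild-type cells. Library 0 peaks with wild-type G9a were 4 in HoxB and 2 in HoxC, with none in HoxA and HoxD. Seen from G9a, 11 of the 12 wild-type peaks inside the windows overlapped library 1 Ezh2, against 2.54% of the list, and 14 of the 20 rescue peaks did, against 2.45%. As library 1 covered 80.3% of the windows, a peak placed there would mostly meet it, so these overlaps are not a result about G9a.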

How the data were processed

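The authors deposited 1 peak list per library, on mm9, with a score for each peak. The submitters' processing notes list Bowtie 0.12.7 and MACS 1.4. Per the design text, the pooled wild-type inputs were the control; a separate control for the knockout or the rescue is not stated. Formaldehyde was 1% for 10 min, and G9a samples first had 2 mM DSG for 45 min, per the labels' protocols. The 3 inputs were not analysed here. Peaks were ranked or filtered by score only inside their own list. Covered base pairs, overlaps (1 bp or more), 10 kb bins and non-overlapping tiles were computed in Python 3.11.15 (numpy 2.4.6, scipy 1.17.1, matplotlib 3.10.9) and tested on simulated data. Positions are 1-based. Named peaks are, in each cluster, the longest and highest-scoring Ezh2 peaks, the highest-ranked ones missing from the knockout, the longest gaps and the G9a peaks; other places were chosen after their values were seen. Lists without counts give no depth. Alternatives changed the score minimum, list length, merging, overlap, window and flanks; leaving out a cluster, and some combinations with the common lowest score or merging, were chosen after seeing the data. The windows, genes and lists were chosen with earlier results of these data known.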

Additional observations from a re-analysis of the deposited data

How the results depend on the processing

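A value counts as moved when it changed by over 1.5 times, or 10 points for a share. Of 63 alternatives for the main results 49 stayed within this limit, and of 40 for single clusters 34 did. With scores of at least 100, Hox peaks numbered 143 in library 0 and 132 in the knockout, and no G9a peak was left inside the windows (0 in both lists, density ratio 0). Merging peaks within 1 kb left 70, 15 and 78 Ezh2 peaks in library 0, library 1 and the knockout. The share of library 0 Hox peaks found in the knockout was 85.7% after merging, 58.9% when most of the peak had to overlap and 93.4% with a gap of up to 1 kb allowed. With equal list lengths the rescue had 13 G9a peaks inside. The share of wild-type base pairs found in the knockout ranged from 39.2% to 66.6% when either wild-type library was left out. Leaving out 1 cluster gave G9a density ratios of 0.363 (no HoxD) to 0.638 (no HoxA) in wild type and 0.366 (no HoxB) to 0.657 (no HoxA) in the rescue. No paired analysis was possible, because knockout Ezh2 and each G9a group had 1 library and no pairing of cultures is stated. Unknown depth limits every statement that a peak was missing.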
